A study of Canis lupus familiaris with 12 samples.

Results

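The let-7 and miR-98 family was compared between the TAM-resistant canine mammary gland tumor line CHMmTAM and its parental line CHMm. Its members were taken by name, as the rows of the miRNA count table that begin with let-7 together with miR-98. This gave 9 of the 453 miRNAs listed, namely cfa-let-7a, cfa-let-7b, cfa-let-7c, cfa-let-7d, cfa-let-7e, cfa-let-7f, cfa-let-7g, cfa-let-7j and cfa-miR-98, where the prefix cfa stands for the dog and is mostly left out below. All 9 had enough counts to be tested among 284 miRNAs.

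CHMm came from a metastatic lesion (pleural effusion) of a dog with a mammary gland tumor. CHMmTAM was selected from it with rising TAM (tamoxifen, an antagonist of the oestrogen receptor in mammary cells) for 10 months until it grew at 10 μM, was kept at 10 μM for 1 month and was then cultured without drug for 1 week. The paper's methods give the cells phenol-red-free medium with charcoal-stripped serum and hydroxytamoxifen, without saying whether CHMm had the same medium. Small RNA was sequenced in 3 libraries per line. CHMmTAM is 1 resistant line, so TAM resistance and any drift between the lines during selection cannot be told apart. The labels do not say that the libraries of a line come from separate cultures, so p-values measure only the spread between these libraries, which may be technical.

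let-7 miRNAs are short RNAs that share a seed, the stretch near the 5′ end that pairs with target mRNAs, and so are held to repress overlapping targets such as RAS genes, MYC and HMGA2. They accumulate as cells differentiate, and the protein LIN28 blocks the maturation of their precursors in stem cells. In mammary tissue they are known for low levels in self-renewing tumor cells. The mRNAs of LIN28 and of let-7 targets were not analysed here. Dog genes of the family lie at several places. In RefSeq's annotation of the dog assembly UU_Cfam_GSD_1.0, all 9 members were matched by name to 10 genes. The let-7e gene lies between the genes of miR-125a and miR-99b. let-7c has genes of miR-99a and miR-125b beside it. One let-7a gene neighbours let-7b, and another, within the span of BLID, lies among genes of miR-99a and miR-125b. let-7d and let-7f are neighbours of each other. The let-7g gene lies within WDR82 and the miR-98 gene within HUWE1. A gene of miR-135a, which was not compared here, lies within 100000 bases of let-7g. The miR-98 and let-7j genes have no other miRNA gene within 100000 bases on either side.

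Library totals lay between 7512659 and 11450062 counts for CHMm, and between 8137736 and 12482211 for CHMmTAM. Markers of mammary epithelium (7 miRNAs of the miR-200, miR-203 and miR-205 kind) summed to between 24457 and 26853 CPM (counts scaled to a common library total) in CHMm and between 21958 and 23739 CPM in CHMmTAM. They did not move alike, as miR-205 had 5862 to 6212 CPM in CHMm and 3647 to 3922 CPM in CHMmTAM, whereas miR-429 had 2073 to 2252 CPM and 2778 to 2832 CPM. The summed markers of blood cells reached 3.86 to 4.89 CPM in CHMm and 7.13 to 8.49 CPM in CHMmTAM, and those of muscle 6.46 to 7.05 CPM and 29.3 to 29.6 CPM. Mesenchymal markers summed to 38.6 to 48.3 CPM in CHMm and 23.8 to 28.1 CPM in CHMmTAM. Most of this sum was miR-199, with 35.5 to 41.4 CPM in CHMm and 18.8 to 23.3 CPM in CHMmTAM. The libraries of the lines overlapped for miR-143, miR-145 and miR-214. The list for the nervous system, of which miR-9 and miR-128 gave nearly all counts and the defining miR-124 had 1 count in a single library and 0 in the rest, summed to 2300 to 2339 CPM and 1660 to 1766 CPM. The part of these differences in the values of the family was not tested.

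The family as a whole took the same portion of the miRNA counts in both lines within the spread between libraries, while its make-up differed. The summed members took 12.3%, 12.0% and 11.6% of all counts in the CHMm libraries and 12.0%, 11.4% and 12.2% in the CHMmTAM libraries. The lines overlapped, and the means were 12.0% ± 0.350 (SD, n = 3) in CHMm and 11.9% ± 0.451 (SD, n = 3) in CHMmTAM. Counting error was small beside this spread, with a 95% Wilson interval of 11.33% to 11.37% in the library with the lowest share. miR-21 alone took 50.2% to 51.7% of the counts in CHMm and 53.7% to 54.5% in CHMmTAM. Of the counts outside miR-21, the family took 24.4% ± 0.926 (SD, n = 3) in CHMm and 25.8% ± 1.10 (SD, n = 3) in CHMmTAM, and the lines again overlapped. No test was made on the sum. In bulk libraries, fewer cells that express a miRNA and less of it per cell cannot be told apart.

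For each member, counts were scaled by TMM, which corrects library totals for a few dominant miRNAs, and are given below as normalised CPM. let-7g was the most abundant member and ranked 2 among all tested miRNAs in both lines. let-7a ranked 4 in both, let-7f ranked 8 in CHMm and 6 in CHMmTAM, and let-7b ranked 11 and 13. These 4 members held 96.2% ± 0.0667 (SD, n = 3) of the family's counts in CHMm and 96.8% ± 0.121 (SD, n = 3) in CHMmTAM. The order from let-7g through let-7a, let-7f, let-7b, miR-98, let-7e, let-7c and let-7d to let-7j was the same in both lines. Within CHMm, let-7g and let-7a were the only neighbours in this order whose libraries overlapped, with let-7g 1.06 times let-7a by mean and above it in each of the 3 libraries. Within CHMmTAM no neighbours overlapped. These are levels of reads, which also depend on how well each sequence is ligated and amplified.

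**Figure D1:**
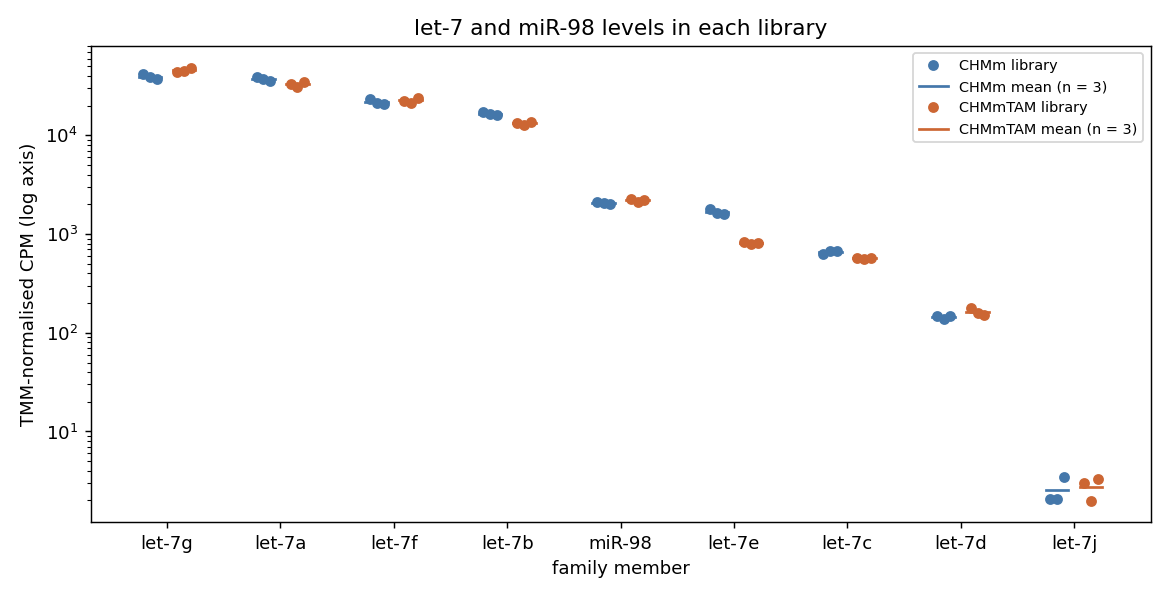
TMM-normalised CPM (log axis) of the 9 members, with 1 point per library and a line at the mean of each line's 3 libraries. let-7e shows the widest gap between CHMm and CHMmTAM, from a mean of 1672 to a mean of 811 CPM, and let-7j lies near 3 CPM with mixed libraries.

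In the comparison of CHMmTAM with CHMm, 5 of the 9 members passed FDR below 0.05 in edgeR's quasi-likelihood test, where 44.0% of all tested miRNAs did. That test pools its estimate of spread over all tested miRNAs. Its FDRs, standard errors and intervals therefore do not rest on a member's own libraries alone. let-7a, let-7b, let-7c and let-7e fell and let-7g rose, although let-7g lay at a log2 fold change of -0.014 under upper-quartile scaling. Thus 4 of 9 were lower, against 18.7% of all tested miRNAs, and 1 of 9 was higher, against 25.4%. The libraries of the lines did not overlap for 6 of the 9, where 51.8% of all tested miRNAs showed no overlap. The counts in either direction together and the count without overlap are near these backgrounds and are no result about the family. The median log2 fold change was 0.055 over the 9 members and 0.060 over all 284 tested. Among the 117 miRNAs with a mean of at least 50 CPM, which include the members other than let-7j, 70 passed.

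cfa-let-7e had the largest log2 fold change of the family in size. It had 1801, 1623 and 1593 CPM in the CHMm libraries and 824, 792 and 816 CPM in the CHMmTAM libraries. Every CHMmTAM library was below every CHMm library, and the 3 resistant libraries lay within a narrow range. Its mean fell from 1672 ± 112 CPM (SD, n = 3) to 811 ± 16.9 CPM (SD, n = 3), which is a log2 fold change of -1.04 (SE 0.068, 95% interval -1.18 to -0.91, edgeR quasi-likelihood FDR = 1.04e-46). It was the only member beyond both an FDR of 0.05 and a log2 fold change of 1 in size, thresholds which 11.3% of all tested miRNAs passed, and 5.28% passed in the direction of let-7e. Without CHMm replicate 1, the library with the most let-7e, the log2 fold change was -0.99 (edgeR quasi-likelihood FDR = 1.22e-08) and no member passed both. The size of the FDR of let-7e thus depended strongly on the libraries used, while its call did not.

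cfa-let-7b is encoded beside let-7a and was the next most reduced. It had 17371, 16623 and 15973 CPM in CHMm and 13459, 12821 and 13815 CPM in CHMmTAM. The lines did not overlap, and the log2 fold change was -0.32 (SE 0.063, edgeR quasi-likelihood FDR = 2.35e-06).

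cfa-let-7c, which shares its surroundings with miR-99a and miR-125b, had 630, 676 and 678 CPM in CHMm and 575, 563 and 575 CPM in CHMmTAM. Every resistant library was again lower. The log2 fold change was -0.21 (SE 0.070, edgeR quasi-likelihood FDR = 0.00659).

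cfa-let-7a, the member with the closest match to the founding let-7 of the nematode, had 39380, 36889 and 35571 CPM in CHMm and 33101, 30746 and 34733 CPM in CHMmTAM. The lines did not overlap, but the lowest CHMm library lay close to the highest CHMmTAM library. Its log2 fold change was -0.18 (SE 0.062, edgeR quasi-likelihood FDR = 0.00920). The call was lost without CHMm replicate 1 (-0.14), without CHMm replicate 2 (-0.18) and without CHMmTAM replicate 2 (-0.14).

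cfa-let-7g moved the other way. It had 41533, 39316 and 37333 CPM in CHMm and 44413, 45146 and 48676 CPM in CHMmTAM, so that all resistant libraries were higher. The mean over 3 libraries rose from 39394 ± 2101 CPM (SD) to 46078 ± 2279 CPM (SD), and the log2 fold change was 0.23 (SE 0.062, edgeR quasi-likelihood FDR = 0.000864).

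The remaining 4 members did not pass. cfa-let-7d had 149, 137 and 148 CPM in CHMm and 177, 160 and 151 CPM in CHMmTAM. Its lines did not overlap, but the lowest CHMmTAM library lay just above the highest of CHMm, and the log2 fold change was 0.17 (95% interval 0.014 to 0.32 before adjustment, edgeR quasi-likelihood FDR = 0.0692). Without CHMmTAM replicate 3, let-7d passed at 0.24. With all libraries and edgeR's default filter it passed at 0.20 (edgeR quasi-likelihood FDR = 0.0175). cfa-let-7f had 23177, 21293 and 20896 CPM in CHMm and 22475, 21523 and 23900 CPM in CHMmTAM, which overlap, with a log2 fold change of 0.055 (95% interval -0.068 to 0.18, edgeR quasi-likelihood FDR = 0.516). cfa-miR-98 had 2135, 2076 and 1998 CPM in CHMm and 2247, 2131 and 2238 CPM in CHMmTAM. The lowest CHMmTAM library lay below the highest CHMm library, so that the lines overlapped, and the log2 fold change was 0.092 (95% interval -0.038 to 0.22, edgeR quasi-likelihood FDR = 0.266). These intervals leave room for differences of either sign in let-7f and miR-98, but not for a change of the size of let-7e.

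let-7j was the one rare member. It had 15, 24 and 31 counts in CHMm and 38, 22 and 26 counts in CHMmTAM. The interval of its log2 fold change ran from -0.47 to 0.68, so that a moderate difference in either direction was not detectable at this depth. The other 8 members varied between replicates by 1.21% to 8.10% (standard deviation over mean), where counting alone gives 0.181% to 3.03% in the smallest library. Each exceeded its own counting error in both lines, except let-7c in CHMmTAM (1.21% against 1.48%). For let-7j, counting gives 25.8% and the replicates varied by 32.1% and 24.3%.

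**Figure D2:**
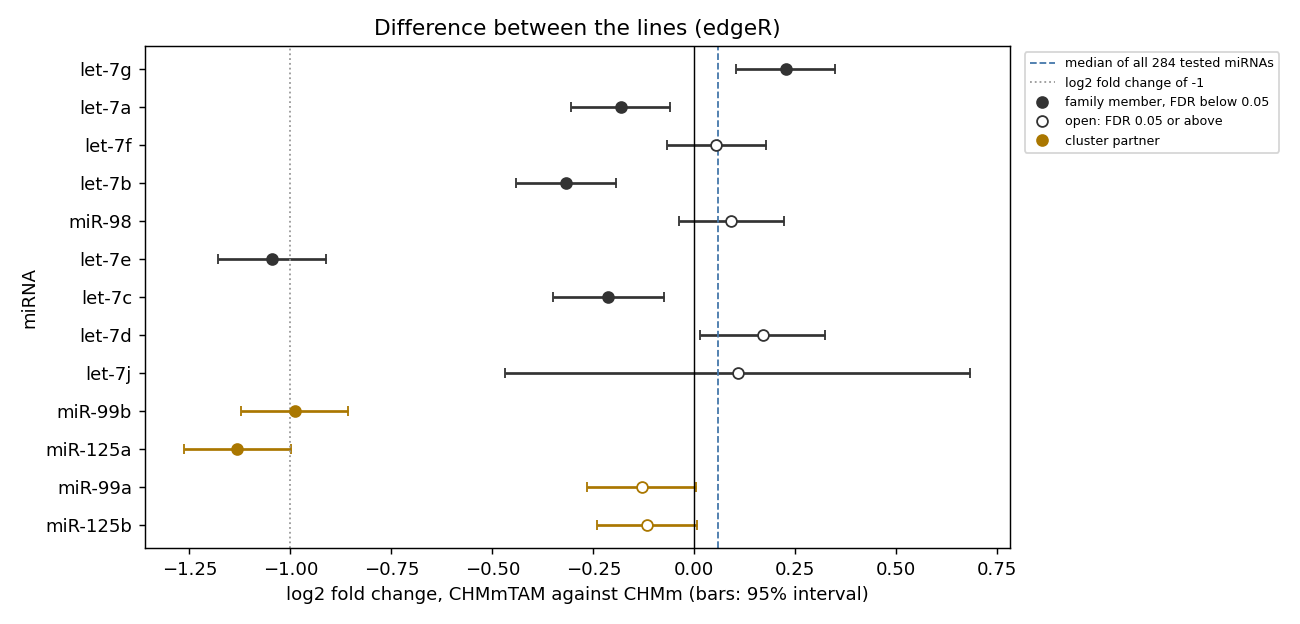
Log2 fold change of CHMmTAM against CHMm with its 95% interval for the 9 members (black) and 4 cluster partners (gold), filled where FDR was below 0.05. let-7e (-1.04) lies beside miR-99b (-0.99) and miR-125a (-1.13), far from the other members, which range from -0.32 to 0.23 around the median of all tested miRNAs (0.060).

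The rises and falls nearly cancelled. The 5 members with a higher mean in CHMmTAM gained 7683 CPM together, of which let-7g alone gave 6685 CPM. The 4 members with a lower mean fell by 8663 CPM together, of which let-7a fell by 4420 CPM, let-7b fell by 3291 CPM and let-7e fell by 862 CPM. The net difference of the family was -981 CPM, against a spread between libraries of 6058 CPM in CHMm and 5646 CPM in CHMmTAM (SD, n = 3).

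The make-up of the family does not depend on the scaling between libraries, since each member is set against the family's own counts. let-7g held 32.9%, 33.1% and 32.7% of the family in CHMm and 37.9%, 39.6% and 39.0% in CHMmTAM. let-7a held 31.2%, 31.1% and 31.1% in CHMm and 28.2%, 27.0% and 27.8% in CHMmTAM. Thus let-7g and let-7a had close to equal shares in CHMm, whereas let-7g clearly led in CHMmTAM. The ratio of let-7g to let-7a was 1.05 to 1.07 in the CHMm libraries and 1.34 to 1.47 in the CHMmTAM libraries, a pair chosen after the values were seen and given without a test. let-7b held 13.9% ± 0.135 (SD, n = 3) in CHMm and 11.3% ± 0.208 in CHMmTAM. let-7e held 1.40% ± 0.0295 in CHMm and 0.684% ± 0.0265 in CHMmTAM. let-7f, at 18.2% ± 0.225 and 19.1% ± 0.146, and miR-98, at 1.73% ± 0.0334 and 1.86% ± 0.0627, took slightly larger shares in CHMmTAM, without overlap.

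**Figure D3:**
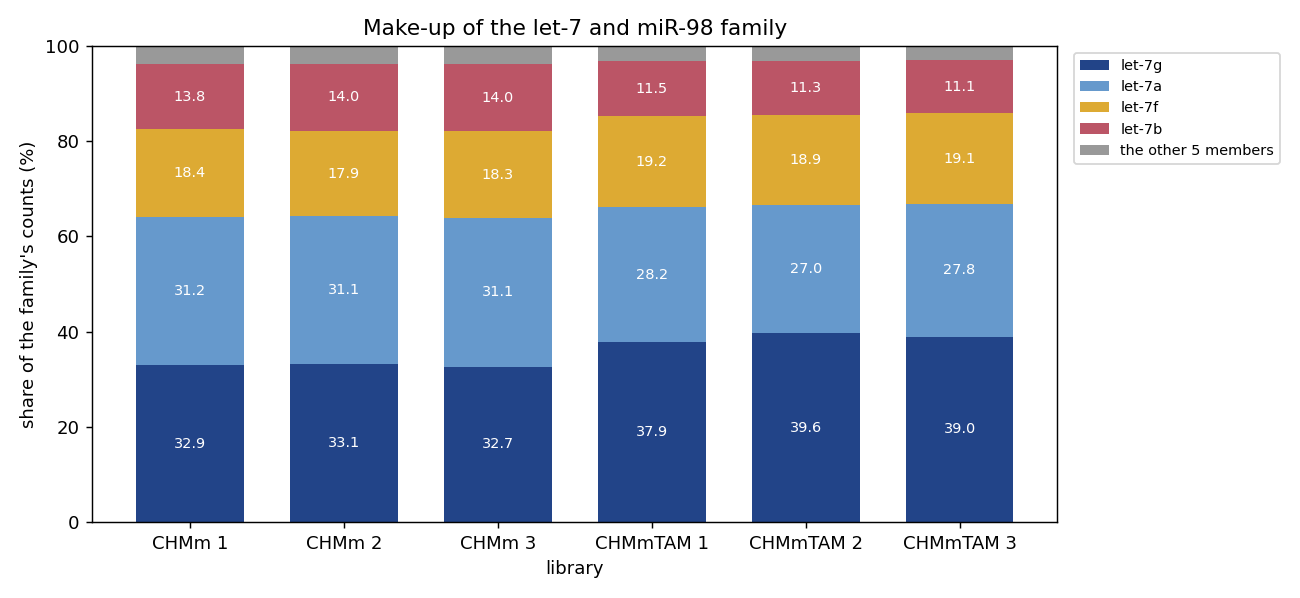
Share of the family's counts (%) held by let-7g, let-7a, let-7f, let-7b and the other 5 members together, 1 bar per library. let-7g fills 32.7% to 33.1% of each CHMm bar and 37.9% to 39.6% of each CHMmTAM bar, while let-7a and let-7b are narrower in CHMmTAM.

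The ratio of each member to the sum of the others was tested between the lines. The lines did not overlap for 7 of the 9 members, a count without a background, as such ratios were not formed for other miRNAs. The ratios are tied to each other, since a fall in abundant members raises the ratios of the rest. The log2 ratio was lower in CHMmTAM by -1.04 for let-7e, -0.35 for let-7b, -0.24 for let-7a and -0.20 for let-7c, and it was higher by 0.37 for let-7g, 0.11 for miR-98 and 0.082 for let-7f. Each of these 7 gave an exact two-sided permutation p of 0.1, the smallest that 3 against 3 allows, and 0.129 after Benjamini-Hochberg adjustment over the 9 members, so that the design cannot pass 0.05. let-7d (0.17) and let-7j (0.15) overlapped. By their own CPM, let-7f and miR-98 overlapped between the lines and were not called (edgeR quasi-likelihood FDR = 0.516 and 0.266). The spread of the make-up between replicates exceeded counting error, as the chi-square of the 9 members over its degrees of freedom was 12.5 to 20.4 between CHMm libraries and 37.1 to 124.5 between CHMmTAM libraries.

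The 4 measured partners in the let-7 clusters were miR-99a, miR-99b, miR-125a and miR-125b, of which 2 fell and 0 rose, where 18.7% of all tested miRNAs were lower and 25.4% higher. miR-99 and miR-125 miRNAs are transcribed together with let-7 genes in many animals. miR-99b had 2667, 2575 and 2773 CPM in CHMm and 1412, 1346 and 1277 CPM in CHMmTAM, a log2 fold change of -0.99. miR-125a had 2528, 2643 and 2542 CPM in CHMm and 1189, 1141 and 1192 CPM in CHMmTAM, a log2 fold change of -1.13. Both were lower in all 3 resistant libraries and stood close to let-7e, their genomic neighbour. The ratio of let-7e to miR-99b was 0.675, 0.630 and 0.575 in CHMm and 0.583, 0.588 and 0.639 in CHMmTAM. The lines overlapped, with a log2 difference of -0.053 between the means and of -0.21 to 0.15 between single libraries (exact two-sided permutation p = 0.7). The ratio of let-7e to miR-125a was 0.712, 0.614 and 0.627 in CHMm and 0.693, 0.694 and 0.685 in CHMmTAM. Here the log2 difference was 0.088 between the means and -0.057 to 0.18 between single libraries (exact two-sided permutation p = 0.4). The ratio of let-7e to its cluster partners therefore overlapped between the lines while its ratio to the family did not.

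**Figure D4:**
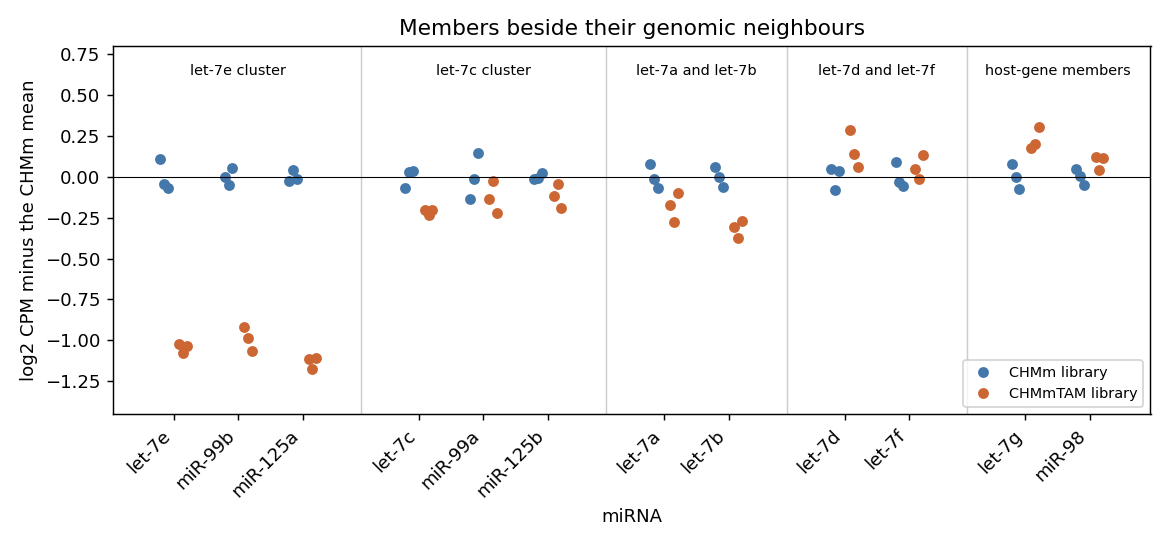
Log2 normalised CPM of each library minus the mean of the CHMm libraries, for members and partners grouped by their place among the RefSeq genes. let-7e, miR-99b and miR-125a drop together to near -1 in all 3 CHMmTAM libraries, whereas the points of the other groups stay much closer to the CHMm mean.

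The cluster of let-7c showed smaller differences. miR-99a had 754, 820 and 917 CPM in CHMm and 752, 812 and 710 CPM in CHMmTAM, which overlap, with a log2 fold change of -0.13 (95% interval -0.27 to 0.0054, edgeR quasi-likelihood FDR = 0.119). miR-125b had 14459, 14527 and 14817 CPM in CHMm and 13438, 14150 and 12789 CPM in CHMmTAM, with a log2 fold change of -0.12 (edgeR quasi-likelihood FDR = 0.124). Both passed as lower under RLE, upper-quartile and family-free TMM scaling and in DESeq2, so that all 4 partners were called lower there. Of all 284 tested miRNAs, 73, 100, 74 and 66 were called lower in these settings, against 53 with TMM. Their counts cannot be divided between the genes beside let-7c and those beside let-7a. The log2 ratio of let-7c to miR-99a differed by -0.084 between the lines, and by -0.27 to 0.13 between single libraries (exact two-sided permutation p = 0.4). In other mammals a let-7f gene lies beside miR-98, and the ratio of miR-98 to let-7f, 0.0951 in CHMm and 0.0975 in CHMmTAM, overlapped as well (log2 difference 0.037, exact two-sided permutation p = 0.4). After adjustment over the 4 ratios, the p-values were 0.533 to 0.700 (Benjamini-Hochberg, exact permutation tests).

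Neighbouring members inside the family were compared as values only, since these pairs were added after the data were seen. The ratio of let-7b to let-7a was 0.441, 0.451 and 0.449 in CHMm and 0.407, 0.417 and 0.398 in CHMmTAM, without overlap. The ratio of let-7d to let-7f was 0.00644, 0.00643 and 0.00710 in CHMm and 0.00787, 0.00742 and 0.00631 in CHMmTAM, with overlap. The mean log2 ratio differed between the lines by -0.13 for let-7b and let-7a and by 0.11 for let-7d and let-7f, beside 0.41 for let-7g and let-7a, which are not neighbours.

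Among the 116 other miRNAs with a mean of at least 50 CPM, the profiles nearest to let-7e over the 6 libraries, by root mean square distance of log2 CPM after centring, were those of miR-125a (0.0803), miR-99b (0.0836), miR-128 (0.110), miR-155 (0.163) and miR-222 (0.165). The cluster partners thus came first, and the next ones had log2 fold changes of -0.86, -0.73 and -1.36. The sum of the family was nearest to miR-30d (0.0544), miR-95 (0.0550), miR-151 (0.0560), miR-21 (0.0626) and miR-181c (0.0631), whose log2 fold changes ran from -0.096 to 0.088. The likeness to let-7e follows largely from the difference between the lines. The family sum and its nearest miRNAs differed little between the lines. Both lists are descriptions.

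let-7a, let-7b, let-7c and let-7e had a negative log2 fold change in all 6 scalings tried, whereas the other 5 members turned sign in at least 1 of them. Over these the log2 fold change of let-7g ran from -0.014 to 0.32 and that of let-7a from -0.42 to -0.089. Upper-quartile scaling moved the median of all tested miRNAs from 0.060 to -0.18, and under it 0 members were called higher and 5 lower, let-7f among them, while 41 of all 284 tested miRNAs were called higher and 100 lower, against 72 and 53 with TMM. Library totals without miR-21 moved the median to 0.15, and 4 members, let-7d, let-7f, let-7g and miR-98, were called higher and 2, let-7b and let-7e, lower, while 89 of all tested miRNAs were called higher and 43 lower. Relative to the median of all tested miRNAs, let-7g stood at 0.16 to 0.17, let-7a at -0.24, let-7c at -0.27, let-7b at -0.38, let-7e at -1.11 to -1.10 and let-7f at -0.0070 to -0.0040 in all 6 scalings, because a common factor shifts every miRNA alike.

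**Figure D5:**
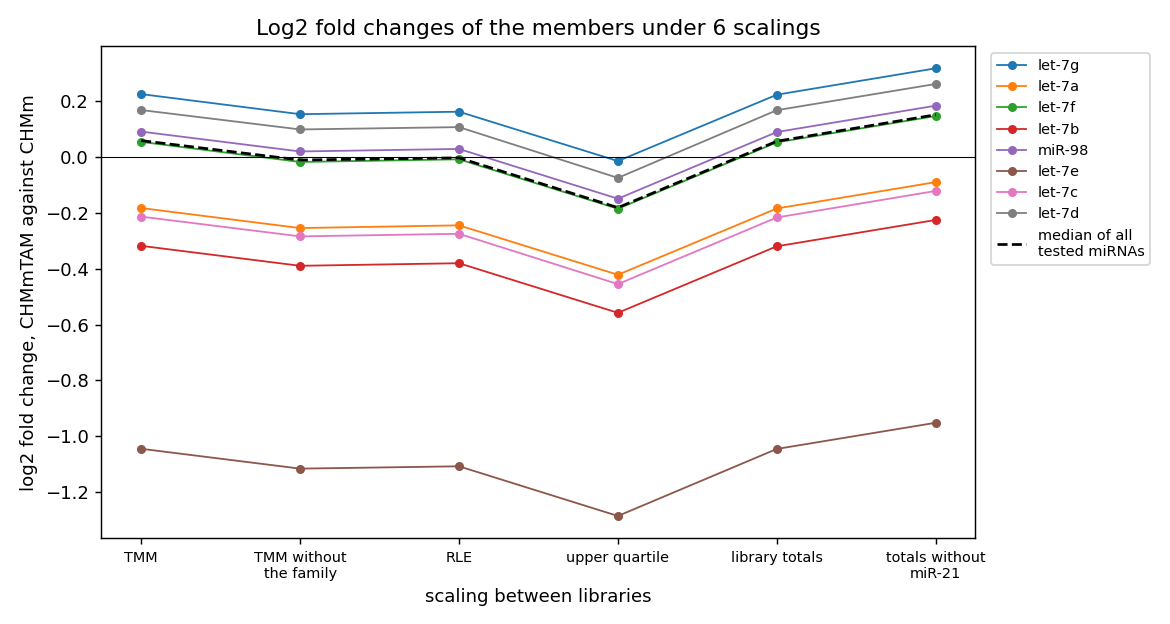
Log2 fold change of CHMmTAM against CHMm for 8 members (let-7j is left out for its low counts) under 6 scalings, with the median of all tested miRNAs as a dashed line. The curves run in parallel with let-7g at the top and let-7e at the bottom, and under upper-quartile scaling let-7g lies just below 0.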

How the data were processed

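Small RNA libraries of CHMm and CHMmTAM (3 of each) were analysed. The values deposited by the authors are unnormalized read counts, given for each mature miRNA. The submitters' processing notes name BWA, HISAT2 2.0.4 and the dog build CanFam3.1, without saying which served the miRNAs. The counting tool, the miRNA database and how multiply matching reads were counted are not given in the sources used here. let-7 miRNAs differ by few bases, so reads could move between members, which was not tested. The 6 RNA-seq samples were not analysed here.

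All miRNAs that reached 10 counts summed over libraries were fitted together in edgeR 4.0.16 (R 4.3.3) with TMM factors and the quasi-likelihood test without a block, and p-values were adjusted by Benjamini-Hochberg (FDR) over 284 miRNAs. Standard errors (SE) were the fitted coefficient divided by the square root of its F value. The code of the fit was run on simulated counts with the same spread for all miRNAs and larger changes than any member showed. Such a run cannot show how well the test suits these data. The smallest share that 3 counts can show was 0.240 to 0.399 CPM. Intervals of shares cover counting error only. Ratios, exact permutation tests and figures used Python 3.11.15, SciPy 1.17.1, NumPy 2.4.6, pandas 2.3.3 and matplotlib 3.10.9.

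The members and lists were chosen with earlier results of these data known. Named miRNAs are the members, their miR-99 and miR-125 partners, and the 5 miRNAs nearest in profile to let-7e and to the family sum. Alternatives were RLE, upper-quartile and other scalings, DESeq2 1.42.0, limma-voom (limma 3.58.1), other filters, a replicate block, FDR below 0.01 and each library left out. RefSeq gene names come from another assembly than the authors' build, so no coordinates are given.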

Additional observations from a re-analysis of the deposited data

How the results depend on the processing

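Of the log2 fold changes of members under the alternatives, 125 kept direction and side of the threshold, 5 lost the call, 5 gained it and 9 turned direction. Those that turned were, under upper-quartile normalization, let-7d (-0.074), let-7f (-0.18), let-7g (-0.014), let-7j (-0.14) and miR-98 (-0.15), further let-7f under RLE size factors (-0.0075), TMM without the family (-0.017) and DESeq2 (-0.0075), and let-7j without CHMm replicate 2, as it ran from -0.041 to 0.39 when each library was left out. The cause was not tested. let-7a and let-7c also lost their calls with library totals without miR-21 (-0.089 and -0.12). let-7b and let-7e passed FDR in all 17 settings, and let-7g in all but upper-quartile normalization. The call of let-7g was close to the threshold with RLE size factors (edgeR quasi-likelihood FDR = 0.04999) and without CHMm replicate 3 (edgeR quasi-likelihood FDR = 0.0428). Between 4 and 6 members passed FDR when each library was left out, where 114 to 126 of 267 to 278 tested miRNAs did. At FDR below 0.01, 5 members passed, and the share of all tested miRNAs was not worked out there. The count past both thresholds, 1, ran from 0 to 1 when each library was left out and was 0 with library totals without miR-21, where let-7e stood at -0.95. Of all tested miRNAs, 30 to 34 passed both when each library was left out, and 32 with library totals without miR-21.

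The difference in family share, -0.113 percentage points (CHMmTAM minus CHMm), ran from -0.302 to 0.140 when each library was left out and was 1.40 without miR-21 in the total, so its sign is not settled. Among the ratios, 2 turned sign when a library was left out, let-7e to miR-99b (-0.114 to 0.0027) and let-7j to the other members (-0.022 to 0.43). With the replicate number as a block, 5 members passed FDR and 1 both thresholds, where 126 and 31 of all 284 tested miRNAs did. The same members were called. The deviations of same-numbered libraries correlated at 0.062, 0.46 and -0.31 over 117 miRNAs. No correlations of differently numbered libraries were set beside these, so they cannot decide whether the numbers pair the libraries. By counting error, depth limits let-7j most (25.8% in the smallest library). For let-7c in CHMmTAM, the spread between replicates (1.21%) also lay below the counting error (1.48%).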
